A study of Mus musculus with 6 samples.

Results

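The 100 genes described here were chosen by their levels in this study: they were expressed in mouse embryonic fibroblasts (MEF) and stood higher in all of 4 lines of induced pluripotent stem cells (iPSC) than in embryonic stem cells (ESC). Levels are RPKM, read counts scaled by gene length and library total. A gene had to reach an RPKM of 5 in MEF, collagen and Hox genes were left out by name, and the rest were ranked on the lowest of the 4 iPSC levels over the ESC level, each with 0.5 added. The table held 19330 genes, of which 8894 entered the ranking, and the first 100 were taken. Their ratios ran from 255 (Gm12191) to 2.16 (Gas6, a secreted ligand of TAM receptor kinases), with a median of 2.56. Only 27 reached 3 and 6 reached 5. The differences of the 100 genes between iPSC and ESC, and in part between iPSC and MEF, were used in the choice and are given below as description, with no test. The ratio changed little around the last place: Pex3, Ctsk and Gas6, ranks 98 to 100, stood at 2.17, 2.16 and 2.16, and the next 3 genes, Arl4d, Adamts7 and Dmpk, at 2.16, 2.15 and 2.15.

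**Figure D1:**
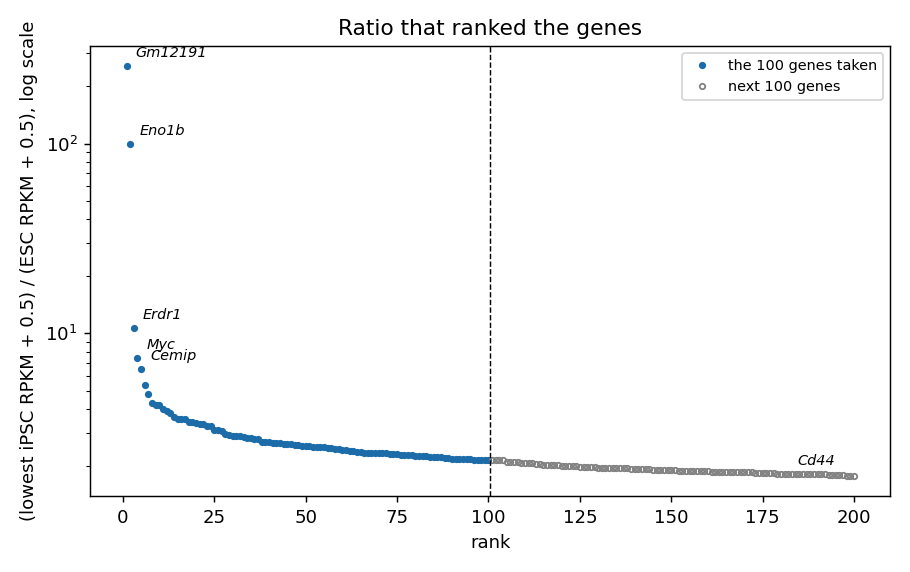
Ratio of the lowest iPSC level to the ESC level (log scale) by rank, for the 100 genes taken (filled) and the next 100 (open); the dashed line marks the last place taken. A few genes stand far above the rest, from Gm12191 at 255 down to the 6 genes at 5 or more, and the curve is nearly flat where it crosses rank 100.

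The study compared iPSC associated with palmitoylcarnitine, the form in which palmitate is carried into mitochondria, with control iPSC and ESC. There were 6 libraries: control iPSC lines 3 and 7, palmitoylcarnitine (PC) iPSC lines 5 and 13, 1 ESC library with the source name B6/blu, and 1 MEF library. No dose or time of palmitoylcarnitine and no reprogramming method are given in the sources used here, nor whether libraries came from separate cultures. A p-value here therefore reflects only how far these libraries spread, which may be technical. MEF were grown in DMEM with serum. ESC and all 4 iPSC lines were grown in serum medium with leukemia inhibitory factor on feeders, primary MEF treated with mitomycin C. RNA of any feeders left in a sample was measured together with stem cell RNA, and its share was not measured. In such bulk RNA, fewer cells of a type and less RNA per cell cannot be told apart.

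The libraries held 26.51 to 27.99 M assigned reads. The summed RPKM of 14 fibroblast markers was 4561 in MEF, 982 to 1687 in iPSC and 796 in ESC. Pdgfra was under 1 in ESC and all iPSC lines. The summed RPKM of 8 pluripotency markers was 3681 to 4690 in iPSC, 4978 in ESC and 252 in MEF. The last value goes against the MEF label in part: Pou5f1 stood at 158 and Sox2 at 88.2 in MEF, beside Klf4 at 124 and Myc at 154, which are the 4 classical reprogramming factors. Nanog was at 0.0482 there, and Zfp42 and Esrrb were listed at 0. The summed RPKM of 8 macrophage markers was 667 in MEF, 14.2 to 20.2 in iPSC and 70.0 in ESC. Of these, Lyz2, a lysozyme of macrophages, stood at 463 in MEF, against 3.80 to 6.27 in iPSC and 11.5 in ESC. Cd68 was instead higher in ESC, at 55.2, than in MEF, at 37.2. Klf4 and Myc are among the 100 genes, and what these MEF levels contributed to their place was not tested. No macrophage marker of the list was among the 100 genes.

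Fibroblasts build connective tissue: they secrete collagens, small proteoglycans and matricellular proteins, remodel them with proteases and their inhibitors, and exchange TGF-beta, BMP and Wnt signals with neighbouring cells. During reprogramming this programme is silenced before the pluripotency network is fully active. Fibroblast transcripts in an iPSC culture are therefore often read as a trace of the starting cells, although fibroblast feeders express the same genes.

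Promoters are shown first for genes whose start carries a recognisable element. RefSeq promoter windows on GRCm38.p6, from 250 bases before to 50 after the start, were found for 72 of the 100 genes, with 92 windows. TATAAA, the TATA box, lay 20 to 35 bases before the start in 5 of the 92 windows (5.43%) and in 2.24% of 32759 windows of other genes. The 5 windows belonged to Postn, Dkk2, Cemip, Rnd3 and Slc7a1. The 250 bases before the start are printed 5′ to 3′ on the gene's strand for these genes and for Glrx, which holds an AP-1 motif. Capitals mark every match on either strand to the motifs named below.
Postn, chr3:54360857-54361106, plus strand: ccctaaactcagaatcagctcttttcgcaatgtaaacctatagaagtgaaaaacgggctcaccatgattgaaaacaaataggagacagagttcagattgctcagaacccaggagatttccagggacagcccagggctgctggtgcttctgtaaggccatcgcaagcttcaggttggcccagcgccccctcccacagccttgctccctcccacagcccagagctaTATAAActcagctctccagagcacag
Dkk2, chr3:132085042-132085291, plus strand: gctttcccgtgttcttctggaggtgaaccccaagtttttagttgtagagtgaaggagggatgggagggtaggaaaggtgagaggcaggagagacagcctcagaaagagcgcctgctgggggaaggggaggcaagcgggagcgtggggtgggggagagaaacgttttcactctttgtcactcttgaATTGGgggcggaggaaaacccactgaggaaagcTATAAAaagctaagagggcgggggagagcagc
Cemip, chr7:84086506-84086755, minus strand: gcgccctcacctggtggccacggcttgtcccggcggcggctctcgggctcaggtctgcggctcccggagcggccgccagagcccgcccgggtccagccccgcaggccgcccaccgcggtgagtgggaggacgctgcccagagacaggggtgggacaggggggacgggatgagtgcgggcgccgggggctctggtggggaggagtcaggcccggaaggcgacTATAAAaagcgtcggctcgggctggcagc
Rnd3, chr2:51149112-51149361, minus strand: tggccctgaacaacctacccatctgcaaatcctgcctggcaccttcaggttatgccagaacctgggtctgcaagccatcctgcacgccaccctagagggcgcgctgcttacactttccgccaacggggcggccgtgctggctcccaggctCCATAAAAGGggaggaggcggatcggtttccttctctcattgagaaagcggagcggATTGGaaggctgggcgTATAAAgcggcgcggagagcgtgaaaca
Slc7a1, chr5:148392816-148393065, minus strand: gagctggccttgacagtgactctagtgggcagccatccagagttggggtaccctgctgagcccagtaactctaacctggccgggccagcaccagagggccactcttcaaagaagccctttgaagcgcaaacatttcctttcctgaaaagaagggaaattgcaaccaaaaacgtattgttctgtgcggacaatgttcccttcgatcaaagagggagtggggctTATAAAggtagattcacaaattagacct
Glrx, chr13:75839635-75839884, plus strand: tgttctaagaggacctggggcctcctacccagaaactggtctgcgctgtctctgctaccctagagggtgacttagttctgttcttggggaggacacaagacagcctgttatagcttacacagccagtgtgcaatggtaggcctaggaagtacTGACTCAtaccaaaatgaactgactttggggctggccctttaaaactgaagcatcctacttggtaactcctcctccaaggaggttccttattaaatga

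The TATA box began 26 bases before the start in Postn, 32 in Dkk2, 29 in Cemip and 28 in Rnd3 and Slc7a1. Dkk2 and Rnd3 also hold the CCAAT box, seen here as its reverse ATTGG, and Rnd3 holds a CArG box, the serum response element. In Glrx the AP-1 motif TGACTCA began 98 bases before the start. Postn and Slc7a1 have a further window each, at an upstream start, with no such TATA box.

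Motifs were searched on both strands in the full windows. A CArG box can contain TATAAA or a CCAAT box on either strand, and none of the others can contain another. TGACTCA was found in 10 of the 92 windows (10.9%), from 8 genes, against 5.19% of other windows. GGAATG, the TEAD motif, was found in 16.3% against 14.7%, CCAAT in 34.8% against 37.4% and TATAAA at any position in 16.3% against 13.6%. The E-box CACGTG was found in 5.43% against 7.16%, the CArG box in 3.26% against 1.62% and the CRE motif TGACGTCA in 1.09% against 1.79%. These shares are descriptions with no test: windows of 1 gene can overlap, and the 2 Glrx windows, which start 1 base apart, count the same TGACTCA. A match is only a run of letters, and occupancy was not measured.

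Expression kept on from fibroblasts describes these genes only in part. The mean of the 4 iPSC lines lay under the MEF level for 77 genes, under 25% of it for 44 and under 10% for 22. It was at or above MEF for 23. The iPSC mean ran from 0.585% of MEF for Dcn to 1080% for Tbx3, with a median of 33.1%. The ESC median was 6.04%. For the 8794 other genes at the MEF minimum the medians were 88.6% in iPSC and 86.6% in ESC. On the log2 scale of the count model, the median difference over the 100 genes was 1.99 for iPSC minus ESC and -1.58 for iPSC minus MEF, beside 0.03 and 0.16 over all 16435 genes tested. Most of the genes thus stood between ESC and MEF, and a smaller set stood above both.

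**Figure D2:**
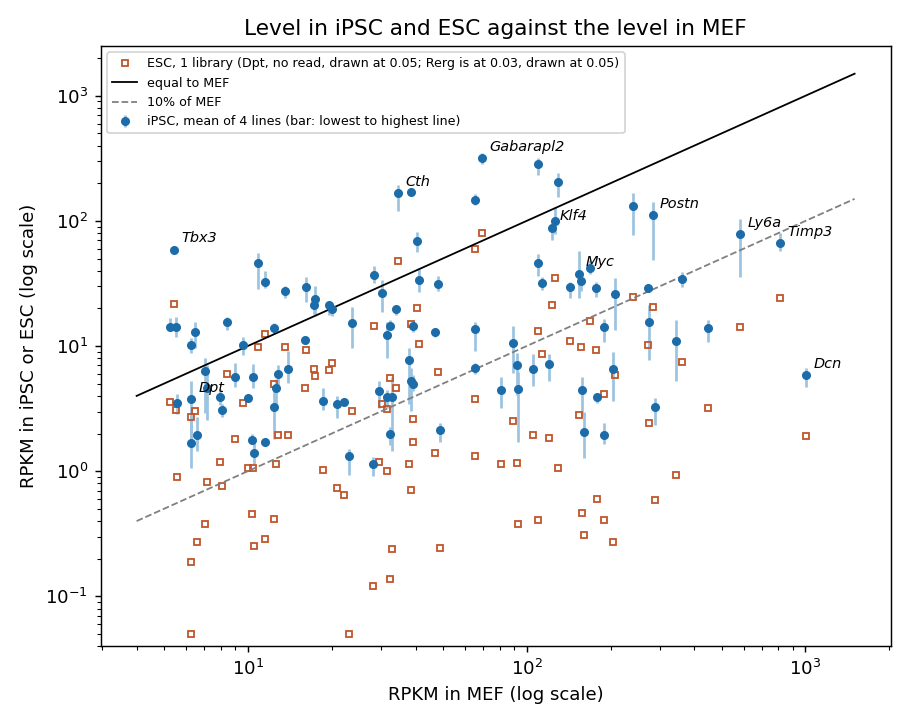
Level in iPSC (filled, mean of 4 lines, bar from the lowest to the highest line) and in ESC (open, 1 library) against the level in MEF, in RPKM on log axes, for the 100 genes. The solid line marks equality with MEF and the dashed line 10% of MEF; 77 filled points lie under the solid line and 22 under the dashed line, with Dcn lowest relative to MEF and Tbx3 highest.

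**Figure D3:**
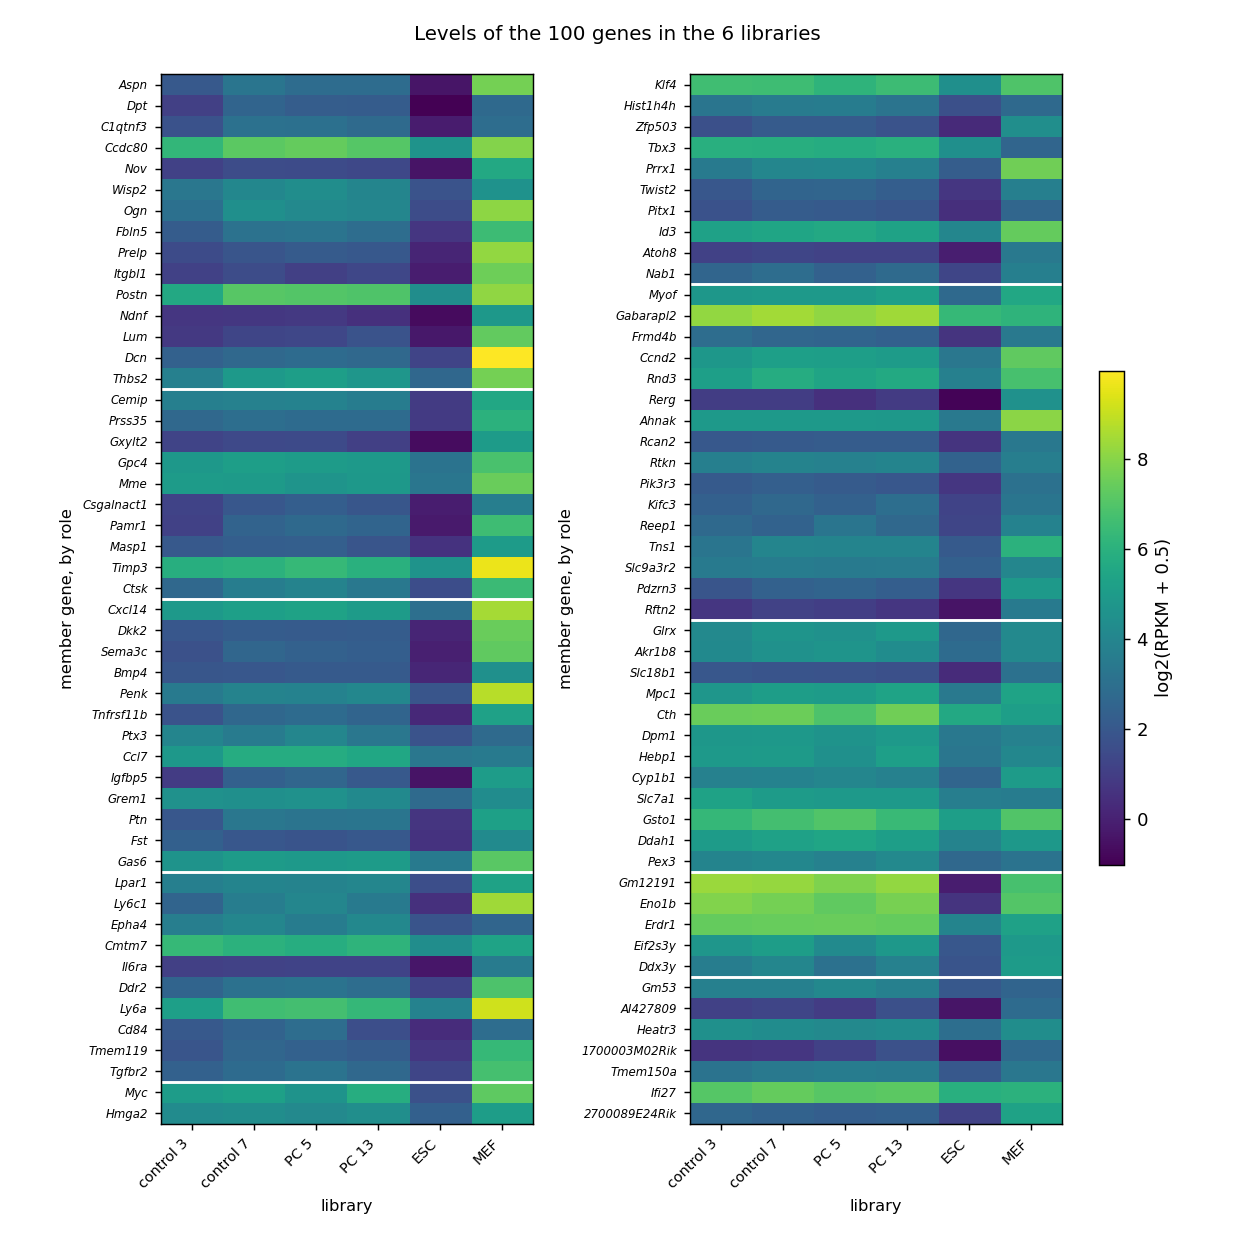
Heat map of log2(RPKM + 0.5) for the 100 genes (rows, grouped by role and separated by white lines) in the 6 libraries (columns). ESC is the darkest column for most genes, MEF is the brightest for most matrix and signal genes of the left panel, and genes such as Gabarapl2 and Cth in the right panel are brighter in iPSC than in MEF.

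Secreted matrix proteins were the group of 15 genes with the lowest share of the fibroblast level, a median of 5.70% of MEF. Postn, the matricellular protein periostin, stood at 48.7 and 141 RPKM in control iPSC 3 and 7, 131 and 124 in PC iPSC 5 and 13, 20.5 in ESC and 283 in MEF. Control iPSC 3 was well under the other lines, which lay close together at under 50% of MEF. Ccdc80, a secreted protein that binds matrix, stood at 76.6, 149, 166 and 135 in lines 3, 7, 5 and 13, 24.5 in ESC and 242 in MEF. Thbs2, thrombospondin 2, stood at 13.4, 29.8, 34.99 and 26.4, with 5.91 in ESC and 207 in MEF. Both repeat the order of periostin, with control iPSC 3 lowest, ESC beneath it and MEF highest.

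The small leucine-rich proteoglycans, which bind collagen fibrils, were highest in MEF by a far wider margin. Dcn, decorin, stood at 1005 RPKM in MEF and at 4.74, 6.10, 6.64 and 6.05 in lines 3, 7, 5 and 13, with 1.90 in ESC. Aspn, asporin, stood at 204 in MEF and at 3.65, 8.98, 6.84 and 6.92 in the lines, with 0.273 in ESC. Lum, lumican, and Prelp were at 1.28% and 1.12% of MEF in the iPSC mean, and Ogn, osteoglycin, at 5.70%. For decorin the ranking thus rested on a few RPKM in cultures next to the highest MEF level of the 100 genes. Dpt, dermatopontin, differed from these: it had 72, 229, 193 and 180 reads in the lines and 0 in ESC, which allows up to 3 reads, and its iPSC mean of 3.80 ± 1.56 RPKM (SD, n = 4) was 60.4% of the MEF level of 6.29. C1qtnf3, a secreted C1q family protein, was likewise close to MEF, with 2.95, 8.08, 7.71 and 6.40 in the lines, 0.380 in ESC and 7.04 in MEF. The others of the group, Fbln5, Nov, Wisp2, Itgbl1 and Ndnf, ran from 1.02% of MEF (Itgbl1) to 65.3% (Wisp2, a CCN family protein).

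The 10 genes of matrix turnover and glycosylation had a median of 12.2% of MEF. Cemip, a hyaluronan-binding protein needed for hyaluronan breakdown, was even across the lines: it stood at 12.8, 13.5, 13.9 and 11.8 in lines 3, 7, 5 and 13, 1.40 in ESC and 47.2 in MEF. Timp3, an inhibitor of metalloproteinases, stood at 57.7, 65.3, 80.7 and 61.3 in the lines, 24.4 in ESC and 813 in MEF. Both lay between ESC and MEF in every line. Pamr1, a secreted protein with a protease-like domain, varied most among the lines, with 1.70 in control iPSC 3 and 5.10, 6.15 and 5.22 in lines 7, 5 and 13, against 0.376 in ESC and 93.5 in MEF. Ctsk, the collagen-degrading cathepsin K, and Csgalnact1, which starts chondroitin sulfate chains, were also lowest in control iPSC 3, at 6.06 and 1.82 against 9.86 to 14.6 and 3.29 to 4.36 in the other lines. Mme, the cell-surface peptidase neprilysin, ran the other way at 32.3, 31.5, 24.8 and 28.2. Gpc4, Masp1, Prss35 and Gxylt2 lay between 6.10% and 27.8% of MEF, with control iPSC 3 within 0.854 to 0.940 of the mean of the other lines.

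Among 13 secreted signals and their antagonists, Cxcl14, an orphan chemokine, was the highest in MEF after Penk. It stood at 29.9, 35.8, 39.4 and 32.5 in lines 3, 7, 5 and 13, 7.48 in ESC and 362 in MEF. Penk, the precursor of enkephalins, stood at 10.8, 14.4, 14.2 and 16.2, with 3.18 in ESC and 446 in MEF. Dkk2, a secreted modulator of Wnt signalling, was nearly equal in the lines at 3.499, 4.05, 3.89 and 4.11, with 0.599 in ESC and 179 in MEF. All 3 genes were thus at under 10% of the fibroblast level. Dkk2 was the most even of them, while Penk in control iPSC 3 was at 0.727 of the mean of the other lines. Bmp4, a BMP ligand, was similar to Dkk2 in its evenness, at 3.61 ± 0.243 (SD, n = 4) against 0.646 in ESC and 22.1 in MEF. The BMP antagonist Grem1 was instead near its fibroblast level, 23.05, 21.8, 23.02 and 17.8 in the lines against 19.6 in MEF and 6.44 in ESC. Fst, follistatin, an activin antagonist, was at 19.7% of MEF.

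Other signals stood above MEF. Ccl7, a monocyte chemokine, stood at 28.6, 55.4, 55.0 and 45.3 in lines 3, 7, 5 and 13, 9.81 in ESC and 10.9 in MEF. Ptx3, a pentraxin of innate immunity, stood at 15.5, 11.3, 15.7 and 9.68, with 3.01 in ESC and 6.48 in MEF. For both, every iPSC line exceeded both reference libraries. Igfbp5, an insulin-like growth factor binding protein, stood at 1.45, 4.68, 5.71 and 3.71, with 0.238 in ESC and 32.9 in MEF. Ptn, the heparin-binding growth factor pleiotrophin, stood at 3.46, 9.71, 8.91 and 9.13, with 1.13 in ESC and 37.8 in MEF. In both, control iPSC 3 lay far under the other lines, as it did for Tnfrsf11b, the decoy receptor osteoprotegerin, at 3.02 against 5.28 to 6.63, and for the guidance factor Sema3c, at 2.77 against 4.42 to 5.71.

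The 10 receptors and surface proteins had a median of 14.3% of MEF. Ly6a, the surface antigen Sca-1, stood at 35.9, 96.8, 102.7 and 79.2 in lines 3, 7, 5 and 13, 14.2 in ESC and 582 in MEF. Its neighbour Ly6c1 followed the same order at 5.23, 12.2, 16.03 and 10.7, with 0.936 in ESC and 344 in MEF, but its transcript is 97.6% identical to Ly6c2 and its reads may be shared. Lpar1, a receptor for lysophosphatidic acid, was even at 14.6 ± 1.27 (SD, n = 4), with 2.61 in ESC and 39.2 in MEF. Tgfbr2, the type II TGF-beta receptor, stood at 4.82, 6.55, 8.60 and 6.13, with 1.95 in ESC and 106 in MEF, and the collagen receptor Ddr2 was at 6.02% of MEF. Epha4, a receptor of ephrins, and Cmtm7, a membrane protein of the chemokine-like factor family, stood above MEF instead, at 257% and 169% of it. Il6ra, Cd84 and Tmem119 were at 15.0%, 64.2% and 5.46%.

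Cd44, the hyaluronan receptor given as the marker of these cells, was not among the 100 genes. It ranked 182 with a ratio of 1.83. Cd44 stood at 16.4 and 31.2 RPKM in control iPSC 3 and 7, 34.8 and 28.6 in PC iPSC 5 and 13, 8.78 in ESC and 51.5 in MEF. All lines lay between ESC and MEF, with control iPSC 3 lowest. Thy1 and Vim, common fibroblast markers, ranked 678 and 2505.

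The 12 transcription and chromatin factors had a median of 41.4% of MEF. Myc, a growth-promoting factor, held rank 4 and stood at 33.1, 37.2, 24.2 and 57.4 in lines 3, 7, 5 and 13, 2.82 in ESC and 154 in MEF. Klf4, a factor of the naive pluripotency network, stood at 96.5, 95.4, 70.9 and 91.5, with 21.4 in ESC and 124 in MEF. Both were lowest in PC iPSC 5 among the lines, and in neither gene did a line reach the MEF level. Tbx3, a T-box factor also active in naive pluripotent cells, was far above MEF, at 60.5, 58.1, 55.4 and 62.1 in the lines, 21.6 in ESC and 5.47 in MEF. Even the ESC level of Tbx3 was 394% of MEF. The mesenchymal factors Prrx1 and Twist2 were lower: Prrx1 stood at 14.1 ± 2.58 (SD, n = 4) against 4.15 in ESC and 190 in MEF, and Twist2 at 4.63 ± 0.929 against 1.15 and 12.7. Hmga2, a chromatin protein of embryonic tissue, was even at 19.1, 20.5, 17.7 and 21.2, with 4.62 in ESC and 34.2 in MEF. Id3, a BMP target that blocks helix-loop-helix factors, was at 25.1% of MEF. Zfp503, Pitx1, Atoh8, Nab1 and the histone gene Hist1h4h completed the group, between 16.4% and 163%.

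The 16 genes of membrane, cytoskeleton and signal transduction had a median of 44.5% of MEF. Gabarapl2, an autophagy protein of the Atg8 family, was the highest of all 100 in iPSC, at 295, 346, 287 and 343 RPKM in lines 3, 7, 5 and 13, with 80.2 in ESC and 69.2 in MEF. Its ESC and MEF levels were nearly equal, so it was no fibroblast-enriched gene in these libraries. Ahnak, a large scaffold protein under the membrane, was the most even, at 29.4, 29.7, 29.4 and 28.1, with 10.3 in ESC and 271 in MEF. Rnd3, a small GTP-binding protein of the cytoskeleton, stood at 36.0, 54.3, 42.6 and 50.6, with 13.1 in ESC and 110 in MEF. Myof, myoferlin, which serves membrane repair, was at 65.0% of MEF, and Ccnd2, cyclin D2, at 21.1%. Rerg, a Ras-like protein, had 94, 90, 58 and 84 reads in the lines and 2 in ESC, so its ESC level rests on almost no reads. The other 10, Frmd4b, Rcan2, Rtkn, Pik3r3, Kifc3, Reep1, Tns1, Slc9a3r2, Pdzrn3 and Rftn2, ran from 13.3% of MEF (Rftn2) to 114% (Rtkn).

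The 12 genes of metabolism and transport were the role group at the highest share of MEF other than the 5 genes that were Y-linked, shared by X and Y or copied, a median of 133%. Cth, the enzyme that makes cysteine from cystathionine, stood at 176, 184, 119 and 192 RPKM in lines 3, 7, 5 and 13, 48.1 in ESC and 34.5 in MEF. Slc7a1, a carrier of cationic amino acids, stood at 39.7, 31.8, 30.2 and 29.2, with 12.4 in ESC and 11.6 in MEF. Both stood above both references in every line, and their ESC level was at or above that of MEF. Gsto1, a glutathione transferase, stood at 78.8, 102, 128 and 87.2, with 34.8 in ESC and 126 in MEF, so that PC iPSC 5 alone reached MEF. Glrx, a glutaredoxin, stood at 17.3, 24.8, 22.8 and 30.0, with 5.79 in ESC and 17.5 in MEF. Mpc1, a subunit of the mitochondrial pyruvate carrier, was at 81.5% of MEF. Dpm1, which makes the mannose donor of the endoplasmic reticulum, was at 201%, but its transcript overlaps Gm20716 with 100% identity. Akr1b8, Slc18b1, Hebp1, Cyp1b1, Ddah1 and Pex3 ran from 38.0% (Slc18b1) to 184% (Pex3, a factor of peroxisome assembly).

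The first 2 places were held by genes whose reads are uncertain. Gm12191 stood at 318, 299, 231 and 294 RPKM in lines 3, 7, 5 and 13, 0.410 in ESC and 110 in MEF. Its GENCODE transcript is 99.7% identical to Rpl30, a ribosomal protein gene. In all, 10 genes, Rpl30 among them, carry a copy at 97% identity or more over at least 80% of its length. Eno1b stood at 240, 206, 155 and 210, with 1.06 in ESC and 129 in MEF, and its transcript is 99.5% identical to the glycolytic gene Eno1. The parent genes showed the reverse order in ESC: Rpl30 was at 575 there against 272 to 370 in iPSC, and Eno1 at 1240 against 610 to 754. Whether reads were divided differently between copies and parents in the ESC library was not tested.

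Eif2s3y and Ddx3y, Y-linked genes for a translation factor subunit and an RNA helicase, were 2 of only 4 Y-linked genes at the MEF minimum. Eif2s3y stood at 26.3, 33.5, 18.6 and 28.7 in lines 3, 7, 5 and 13, 3.48 in ESC and 30.3 in MEF. Ddx3y stood at 12.2, 15.7, 8.01 and 13.5, with 3.12 in ESC and 31.7 in MEF. Both were lowest in PC iPSC 5 among the lines and low in ESC. The other two Y-linked genes, Uty and Kdm5d, stood at 4.26 ± 0.838 and 2.62 ± 0.752 in iPSC (SD, n = 4) and 3.05 and 1.28 in ESC, so ESC was less separate there. The X-linked partners Eif2s3x and Ddx3x stood at 119 and 102 in ESC against 119 to 138 and 137 to 155 in iPSC. Erdr1, at rank 3, lies in the region that X and Y share and was grouped with them. It was even at 165, 171, 174 and 164, with 15.0 in ESC and 38.6 in MEF. A further 7 genes were put in no role group, among them Ifi27, an interferon-inducible gene, at 135, 165, 138 and 147 with 60.0 in ESC and 65.5 in MEF. The others, Gm53, AI427809, Heatr3, 1700003M02Rik, Tmem150a and 2700089E24Rik, ran from 12.8% of MEF (2700089E24Rik) to 269% (Gm53).

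The 4 iPSC lines did not carry these genes equally. Control iPSC 3 was the lowest line for 60 of the 100 genes, against 30.5% of the other genes at the MEF minimum. Its level over the mean of the other lines ran from 0.309 (Igfbp5 and Pamr1) to 1.38 (Fst), and 13 genes were under 0.5. The median deviation from the mean of the 4 lines, in log2 CPM (counts scaled by library size), was -0.18 for control line 3, 0.14 for control line 7 and 0.07 for both PC lines. The secreted matrix proteins stood out: control iPSC 3 was lowest for 13 of 15, with a median of -0.72, beside 0.29 in line 7, 0.25 in line 5 and 0.12 in line 13. Secreted signals had a median of -0.27 in control iPSC 3 and receptors -0.30, while metabolism had -0.06. For the group of 5 formed by Gm12191, Eno1b, Eif2s3y, Ddx3y and Erdr1, the low line was instead PC iPSC 5, at -0.41. Since the ranking used the lowest line, genes very low in control iPSC 3 had less chance of a place.

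**Figure D4:**
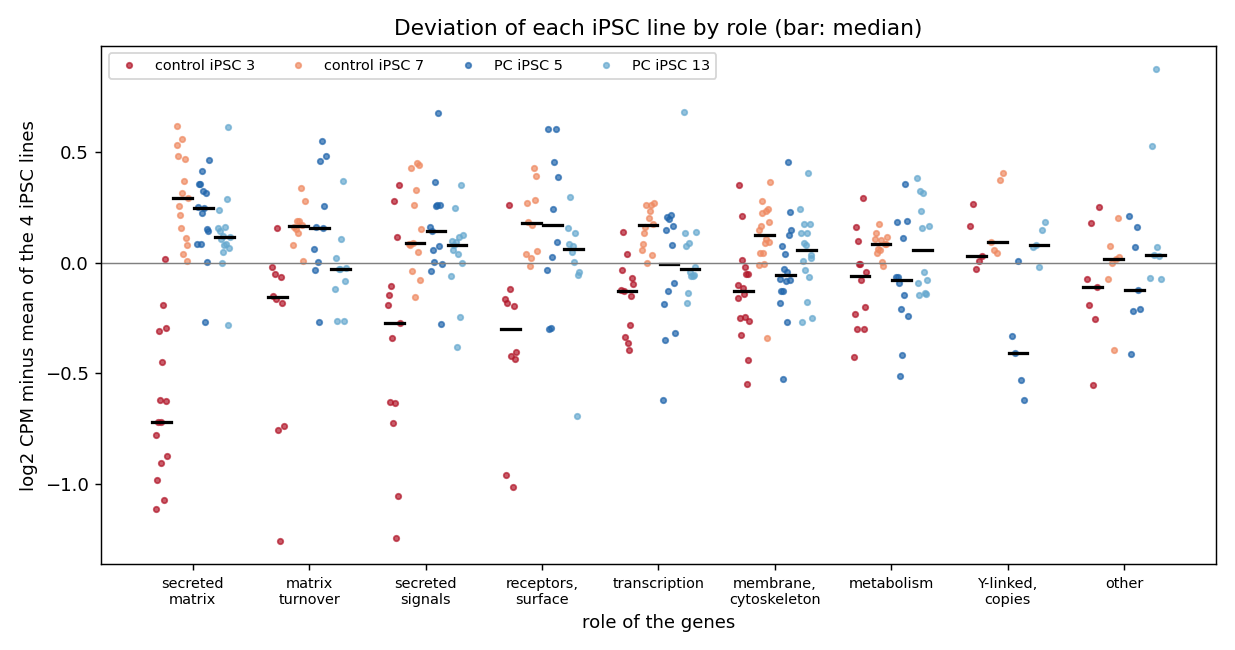
Deviation of each iPSC line from the mean of the 4 lines, in log2 CPM, for each gene (points) by role, with the median of each role as a bar. Control iPSC 3 lies under 0 for most matrix, signal and receptor genes, with a median of -0.72 for secreted matrix proteins, and near 0 for metabolism genes.

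The share of MEF and the deviation of control iPSC 3 moved together. Control iPSC 3 was lowest for 18 of the 22 genes under 10% of MEF, with a median deviation of -0.38. It was lowest for 7 of the 23 genes at or above MEF, with a median of -0.04. The summed markers of fibroblasts and of smooth muscle moved with it. The fibroblast sum, which includes Acta2, was 982 in control iPSC 3 and 1480 to 1687 in the other lines. Fn1 of that list went the other way, at 417.3 in control iPSC 3 and 367.3 to 389.5 in the other lines. The 4 smooth muscle markers summed to 199 in control iPSC 3, 530 to 622 in the other lines, 255 in ESC and 43.4 in MEF. Of the 14 fibroblast markers, 5 are among the 100 genes. No marker of either list was at 0 in all 4 iPSC lines and ESC together. The contractile genes Acta2 and Tagln stood at 174 and 162 in control iPSC 3, 429 to 540 and 411 to 491 in the other lines, 190 and 208 in ESC and 32.6 and 41.2 in MEF, so the MEF library was the lowest for these fibroblast and muscle transcripts. Whether the share of feeder cells differed between cultures was not tested.

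Whether palmitoylcarnitine altered the expression of the genes was the comparison least tied to their choice, since the ranking took no account of PC and control. It called none of them. All 100 genes passed the filter on low counts. In edgeR's quasi-likelihood test with Benjamini-Hochberg adjustment, 0 of the 100 genes and 0 of 16435 genes (0%) passed an adjusted p of 0.05, and the smallest adjusted p was 0.963. An unadjusted p under 0.05 was found for 2 of the 100 genes and for 385 of all genes. DESeq2 also called 0. The log2 difference PC minus control ran from -0.41 to 1.01, with a median of 0.08 beside 0 over all genes. Of the 100 genes, 59 were higher in PC and 41 lower, where 49.6% of all genes were higher. Both PC lines lay above both control lines for 8 genes, where 16.2% of all genes did so, and both lay below for 8, where 15.2% of all genes did so. These shares were under the background.

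The 2 genes at an unadjusted p under 0.05 pointed in opposite directions. 1700003M02Rik, named Cfap206 in RefSeq, a cilia and flagella associated gene, stood at 1.06 and 1.17 in the control lines and 1.68 and 2.83 in the PC lines, a difference of 1.01 (SE 0.37, 95% interval 0.12 to 1.90). Frmd4b, a scaffold protein of epithelial polarity, stood at 7.13 and 5.70 in the control lines and 5.27 and 4.59 in the PC lines, a difference of -0.40 (SE 0.17, 95% interval -0.80 to -0.01). In neither did the groups overlap, and neither passed the adjusted threshold. Among larger groups, Postn differed by 0.41 (SE 0.43, 95% interval -0.62 to 1.43), Dcn by 0.20 (SE 0.17, -0.20 to 0.61) and Cemip by -0.06 (SE 0.13, -0.37 to 0.26). Myc differed by 0.20 (SE 0.37, -0.68 to 1.09) and Klf4 by -0.26 (SE 0.17, -0.66 to 0.14). The intervals excluded a 2-fold difference either way for 77 of the 100 genes, Dcn, Cemip and Klf4 among them, but not for Postn or Myc. The intervals extended by a median factor of 1.42 on each side, beside 1.40 over all genes. How many of all genes had intervals that excluded a 2-fold difference was not counted. The 77 is therefore not read as particular to these genes.

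**Figure D5:**
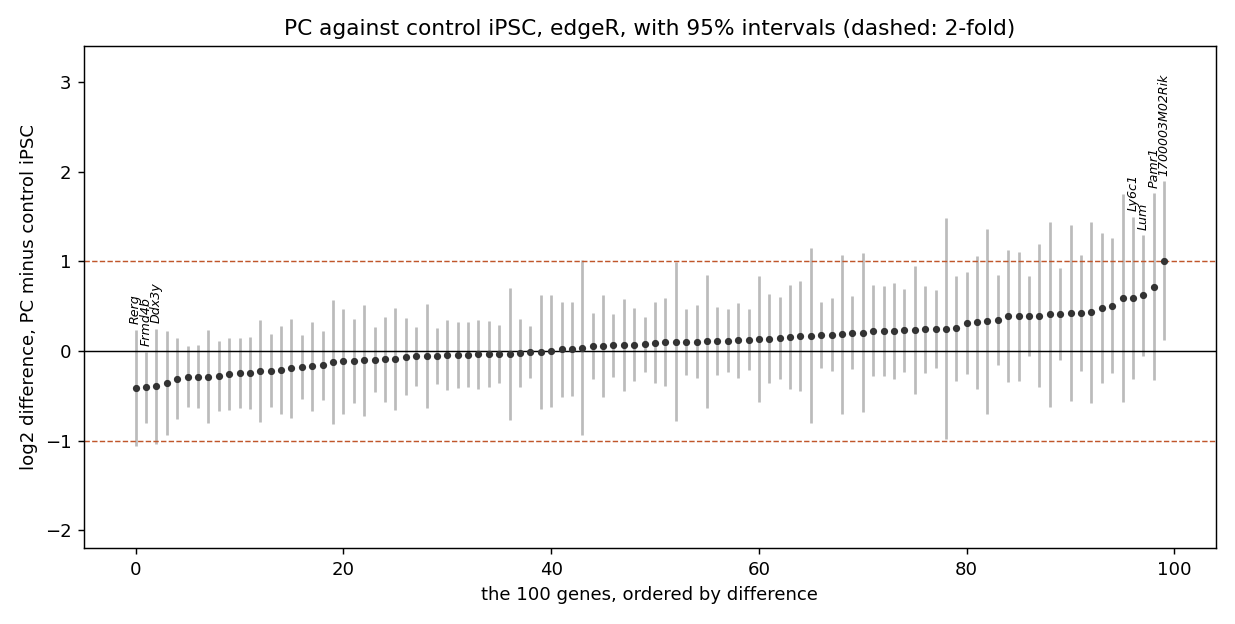
Log2 difference PC minus control iPSC (edgeR, 2 lines each) with its 95% interval for the 100 genes, ordered by difference; dashed lines mark 2-fold. The differences run from -0.41 to 1.01 and scatter about 0, with the interval of 1700003M02Rik wholly above 0 and that of Frmd4b wholly below it.

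This comparison turned on control iPSC 3. Against control iPSC 3 alone, without control iPSC 7, 16 of the 100 genes passed the edgeR test, all higher in PC, where 1.89% of all genes passed, and the median difference was 0.25. In that fit the lone control line is assumed to vary like the others. Without control iPSC 3 the median was -0.09, with 71 of the 100 genes lower in PC, a count not made over all genes. The 16 genes were Pamr1, Igfbp5, Ly6a, Postn, Ly6c1, Ptn, Thbs2, Ogn, Ctsk, Fbln5, C1qtnf3, Tnfrsf11b, Aspn, Ccdc80, Csgalnact1 and Lum, mostly matrix proteins and secreted factors. The largest difference was that of Pamr1 at 1.73 (SE 0.27, edgeR adjusted p = 5.468e-07), and Igfbp5 stood at 1.68 (SE 0.26, adjusted p = 7.699e-07). In that fit, a difference between groups and one of control iPSC 3 cannot be told apart.

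Other genes of the fibroblast programme are given for comparison. Surface, matrix, matrix enzyme and transcription factor lists together held 240 tested genes, of which 20 were among the 100. Without those 20, the median log2 difference of iPSC minus ESC was 0.59 over 220 genes, and 167 of them were above 0. The edgeR fit of the 4 iPSC lines against ESC called 32 of the 220 higher in iPSC and 11 lower. With the 20 chosen genes the counts were 52 of 240 higher, where 4.71% of all genes were, and 11 lower, where 5.71% were. Nothing is read from these calls: they use the contrast that ranked the 100 genes, and the fit gives the 1 ESC library the spread of the iPSC lines. The count of 52 also depends on the lines: it was 110 without control iPSC 3 and 97 without control iPSC 7, while lower calls were 18 and 20. Between PC and control iPSC, 0 of the 240 were called by edgeR.

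Fibroblast genes outside the 100 are described by their levels, with no test. Emp1, a membrane protein, stood at 36.3 ± 6.13 RPKM in iPSC (SD, n = 4), 16.9 in ESC and 904 in MEF. Timp2, a metalloproteinase inhibitor like Timp3, stood at 113 ± 14.8, with 46.2 in ESC and 808 in MEF. Prrx2, the paralog of Prrx1, stood at 22.5 ± 4.81, with 8.44 in ESC and 88.6 in MEF. In these genes, and in Pcolce, Mmp2 and Id1 of the same lists, every iPSC line lay between ESC and MEF. Cd63, Ptrf and Twist1 of these lists did not follow in control iPSC 3. That line stood at 205.5, 21.7 and 5.24, under ESC at 226.9, 27.7 and 6.19, while the other lines lay between ESC and MEF. Among the most abundant matrix genes of MEF, Bgn, biglycan, stood at 128.5 in control iPSC 3, 185.5 to 205.5 in the other lines, 120 in ESC and 1836 in MEF. Sparc, a collagen-binding matricellular protein, stood at 321 in control iPSC 3, 496 to 612 in the other lines, 284 in ESC and 1344 in MEF. In both, control iPSC 3 lay nearer to ESC than to the other lines. Mgp, matrix Gla protein, stood at 1663 in MEF, 25.2 in control iPSC 3, 8.46 to 10.5 in the other lines and 22.8 in ESC. Mgp thus ran against the matrix genes above, being highest among the lines in control iPSC 3.

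The 100 genes lay on all autosomes, X and Y. Chromosome 6 held 14 of them, against 4.78% of the genes at the MEF minimum, and chromosome 1 held 11, against 5.62%. Chromosome 11 held 3, against 8.48%. Those on chromosome 6 had no common role: they ran from Ptn and Ccnd2 to Frmd4b, Reep1, Gxylt2 and Tmem150a. The share of a gene's length covered by reads had a median of 96.9% to 97.8% in the iPSC lines, 88.9% in ESC and 98.6% in MEF. At least 50% was covered for 96 to 98 of the 100 genes in each iPSC line and for 87 in ESC. Ptn was covered over 40.3% to 43.3% in the iPSC lines, and Fbln5 over 41.8% to 53.1%. Cd84 was the extreme, at 6.51%, 16.6%, 67.8% and 8.52% in lines 3, 7, 5 and 13, so its level rests on a small stretch of the gene in 3 of the 4 lines. The fewest reads of any of the 100 genes in an iPSC line was 50, while 28 genes had an ESC level under 1 RPKM, where the ratio depends on the 0.5 added.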

How the data were processed

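RNA of 4 iPSC lines (control 3 and 7, PC 5 and 13), 1 ESC and 1 MEF library was sequenced. The deposited table of the series holds whole-number read counts per gene and RPKM values made from them by the authors, per the file headers, and a coverage percent of each gene. A dash was read as 0. The submitters' processing notes name CASAVA 1.8.2 and mm10 but not what each was used for. For the aligner, counting program, annotation and strand, nothing was given in the sources used here, so reads of overlapping genes and near-identical copies are uncertain. The per-library tables hold the same counts.

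The 100 genes were ranked on deposited RPKM as described above. The main test was the quasi-likelihood test of edgeR 4.0.16 in R 4.3.3 on TMM-scaled counts of the 16435 genes that its default filter kept, with 4 group means over all 6 libraries (2 residual degrees of freedom, prior 4.75, biological coefficient of variation 0.18). P-values were adjusted by Benjamini-Hochberg over all tested genes, at a threshold of 0.05. The script was tested on simulated data. Alternatives were DESeq2 1.42.0, limma 3.58.1, other scalings, filters and pseudocounts, and leaving out each line. Copies were sought with blastn 2.17.0 in GENCODE M21 transcripts, found for 95 of the 100 genes. Gene and promoter positions are from RefSeq (GRCm38.p6), matched for all 100 genes.

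The members, lists and tests were chosen with earlier results of these data known. Genes were named by rank, MEF level, share of MEF, spread over lines and place in the lists, and others after their values were seen. Role groups were assigned by hand after the genes were known. Intervals cover the spread between these libraries, and the floor for a count of 0, 3 reads, covers counting error only.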

Additional observations from a re-analysis of the deposited data

Results flagged for a closer look

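Ptn, pleiotrophin, was at 3.46 RPKM in control iPSC 3, far under the other three iPSC lines, by Dixon's test for 4 samples. Of the 51 genes examined this way it was the only one past that value, where chance flags about 5% of groups. The rest of the 100 genes, though named above, were not examined this way, so Ptn is not read as their only outlier. Among those left out, Gm53 stood at 13.4, 13.3, 16.8 and 13.3 in lines 3, 7, 5 and 13.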

How the results depend on the processing

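Of 91 alternative values computed, 78 stayed within the set limits, 13 moved and 0 changed the direction of a called value. The membership counts given below, down to 67 of the 100 genes, were placed within the limits. The median PC minus control difference changed sign without control iPSC 3 and was placed among the moved values. Leaving out 1 line at a time gave 0 to 16 of the 100 genes called between PC and control iPSC and 0 to 309 of all genes, each highest without control iPSC 7. The median PC minus control difference ran from -0.0906 without control iPSC 3 to 0.25 without control iPSC 7. On log2(RPKM + 1), the median iPSC minus ESC difference was 1.55 and the median iPSC minus MEF difference -1.41; the larger pseudocount shrinks differences of low genes by construction. Without Eif2s3y, Ddx3y, Erdr1 and the 4 genes with near-identical copies, an alternative chosen after seeing the data that left 93 genes, the iPSC minus MEF median was -1.84. Fibroblast list genes called higher in iPSC than in ESC were 87 with DESeq2, the cause of which was not tested, and 46 to 110 without 1 line. Those called lower were 14 to 20 without 1 line.

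Membership depends on the rule. Of the 100 genes, 67 were kept without control iPSC 3, 82 without PC iPSC 5, 73 with the mean of the 4 lines in place of the lowest, 76 and 89 with 0.1 and 1 added to the ratio, 75 and 84 at MEF minimums of 1 and 10, and 97 with RPKM divided by TMM factors. ESC and MEF are 1 library each, so their own spread is unknown. No paired analysis was possible because control lines 3 and 7 and PC lines 5 and 13 share no number.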
